A study of Bos taurus with 15 samples.

Results

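The genes described here are a list of 10 that mark lymphatic endothelium, the cells lining lymph vessels, or that act on it: CCL21, LYVE1, PDPN, PROX1, FLT4, MMRN1, STAB2, VEGFC, VEGFD and CCBE1. They were chosen by name, and 7 of the 10 had an entry of that name among the 13896 genes of the data. VEGFD appeared only under FIGF, an older symbol that RefSeq lists for it, and FIGF is described beside the 7 genes without being counted among them. FLT4 and CCBE1 were not analysed here. The genes were picked with results of these comparisons already known, so the values below describe them and are no independent test.

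The RNA came from subcutaneous adipose tissue of the dewlap of primiparous Prim Holstein cows, with 15 libraries in 5 groups of 3. The group before calving was sampled 1 month before calving, before the diet experiment began, and carries no diet. The groups with severe negative energy balance (SNEB) are labelled as fed a low energy (LE) diet from 1 month before calving, and were sampled at 1 week postpartum (1 wkpp) and at 16 wkpp. The groups with moderate negative energy balance (MNEB) are labelled with a high energy (HE) diet over the same period, and were sampled at the same times. Energy balance is what is left of the energy eaten after maintenance and milk, and cows were selected for it, so diet and energy balance cannot be told apart. The labels do not tie libraries to animals. By the study's methods the same cows were biopsied at all 3 times, so libraries of different times may share a cow. The comparisons over time and the interaction below treat them as independent, and the error given below is the spread between the 3 libraries of a group, which may include technical spread. The libraries of a group were numbered 1 to 3 from the highest to the lowest size factor, a number that is no animal or replicate number.

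Lymph vessels drain fluid, lipid and immune cells from tissue, and in adipose tissue they run alongside the blood vessels. PROX1 is the transcription factor that gives lymphatic endothelial cells their identity. LYVE1 is a hyaluronan receptor of these cells that some tissue macrophages also carry, MMRN1 is a secreted protein of endothelial cells, and PDPN is a membrane glycoprotein shared by lymphatic endothelium and some fibroblasts. VEGFC and VEGFD are growth factors that drive the growth of lymph vessels. CCL21 is a chemokine of lymphatic endothelium and of lymph node stroma that draws dendritic cells and T cells through their receptor CCR7, and STAB2 is a scavenger receptor for hyaluronan.

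The MNEB libraries differed from the rest in depth and content. They held 2027524 to 7484367 exonic reads, against 7989920 to 14632181 in the other 9 libraries, and 2.90 to 23.6 spike-in reads per 100 exonic reads, against 0.181 to 1.55. The summed level of 8 skeletal muscle genes was 1175 to 4099 normalized counts in MNEB and 86.9 to 357 elsewhere, and that of 4 fibroblast genes, PDPN among them, was 6646 to 22159 in MNEB and 34168 to 76571 elsewhere. A separate set of 5 libraries had many reads in the introns of 243 genes that had almost no exonic reads: before calving library 3, MNEB 1 wkpp libraries 2 and 3, MNEB 16 wkpp library 1 and SNEB 16 wkpp library 1. The median normalized intronic count of the 243 genes was 60.5 to 640.2 in these 5 libraries and 3.32 to 35.6 in the other 10. Results are therefore also given without these 5 libraries. The summed level of 8 adipocyte genes was 69206 to 70733 before calving, 21912 to 59917 in MNEB and 75113 to 90608 in SNEB at 1 wkpp, and 12056 to 44791 in MNEB and 45206 to 52574 in SNEB at 16 wkpp. The sum was thus lower in MNEB than in SNEB at each time, but the genes in it did not all follow, and at 16 wkpp LEP stood at 36.0 to 154 in MNEB and at 8.57 to 41.6 in SNEB. The differences in depth, spike-ins, muscle, fibroblast and adipocyte genes cannot be told apart from the MNEB group.

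LYVE1 and MMRN1 were the lymphatic markers with the clearest separation: both were lower in each of the 6 MNEB libraries than in any of the 9 others. The unit below is the normalized exonic count, the exonic reads of a library divided by its size factor, which corrects for depth but not for gene length, so levels are compared between libraries and not between genes. LYVE1 stood at 1250.0, 829 and 909 before calving, at 1803, 1784 and 924 in SNEB 1 wkpp, and at 1764, 1144 and 1066 in SNEB 16 wkpp. In MNEB it stood at 107, 103 and 191 at 1 wkpp and at 118, 242 and 236 at 16 wkpp. The highest MNEB library was thus far below the lowest of the others, and the 2 MNEB groups overlapped each other. The means were 134 ± 49.8 in MNEB and 1504 ± 502 in SNEB at 1 wkpp, and 199 ± 69.5 and 1325 ± 382 at 16 wkpp (SD, n = 3).

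MMRN1 followed LYVE1. It stood at 1272, 707 and 1253 before calving, at 2179, 1530 and 1106 in SNEB 1 wkpp, and at 2029, 1316 and 1115 in SNEB 16 wkpp. In MNEB it stood at 83.4, 108 and 232 at 1 wkpp and at 79.2, 139 and 141 at 16 wkpp. MNEB did not overlap the other 9 libraries, while the 2 MNEB groups overlapped each other and the group before calving overlapped both SNEB groups. The library with the highest LYVE1 in SNEB at each time, library 1, also had the highest MMRN1. Across the 15 libraries the log2 levels of both genes had a Pearson r of 0.982. This rests in part on the gap between MNEB and the rest, and r was 0.882 over the 9 libraries outside MNEB. In bulk tissue, fewer cells of a type and less RNA per cell cannot be told apart.

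**Figure D1:**
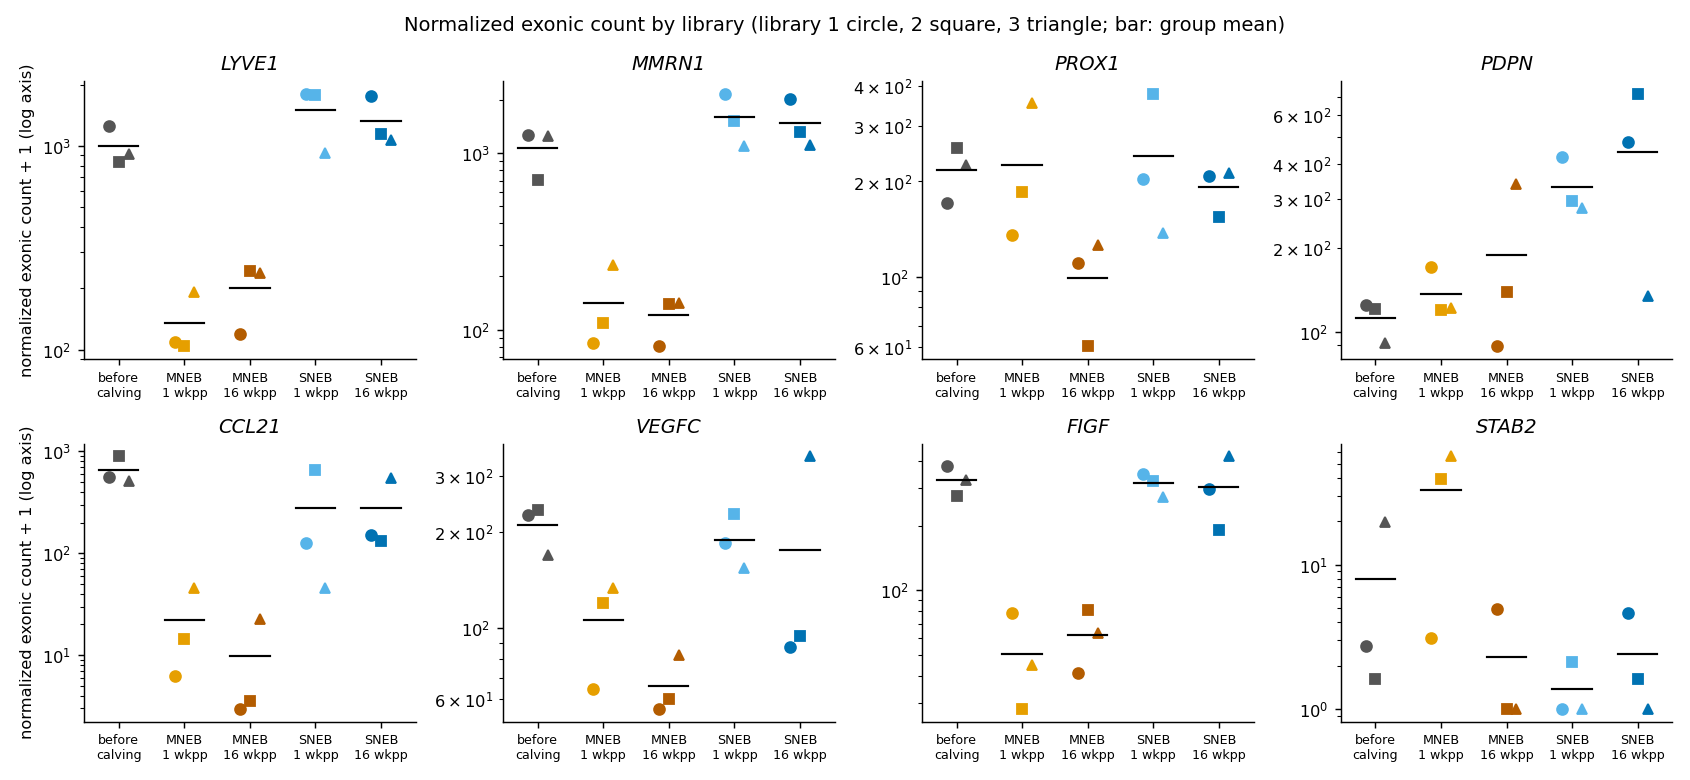
Normalized exonic count plus 1 on a log axis for the 8 genes, by group, with 1 point for each library and a bar for the mean of the 3 libraries of a group. LYVE1, MMRN1 and FIGF are low in all 6 MNEB libraries, CCL21 is low there with its highest MNEB library next to the lowest SNEB library, and PROX1 and PDPN overlap between groups.

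PROX1 did not show that gap in exonic reads. It stood at 170.3, 253 and 224 before calving, at 134.5, 184 and 353 in MNEB 1 wkpp, and at 203, 378 and 136 in SNEB 1 wkpp. At 16 wkpp it stood at 110, 59.1 and 125 in MNEB and at 207, 154 and 212 in SNEB. The 1 wkpp groups overlapped almost entirely, with means of 224 ± 115 in MNEB and 239 ± 125 in SNEB (SD, n = 3), while at 16 wkpp the 3 MNEB libraries were all below the 3 SNEB libraries. MNEB 1 wkpp libraries 2 and 3, the highest for PROX1 in that group, were both among the 5 with many reads on genes with almost no exonic reads. Without these 5 libraries PROX1 ranged from 59.1 to 135 in 3 MNEB libraries and from 136 to 378 in the other 7, a narrow gap. The part of these libraries in the PROX1 level of MNEB 1 wkpp was not tested.

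PDPN differed in another way, by its low level before calving. It stood at 124, 120.3 and 90.6 before calving, at 170.0, 119 and 121 in MNEB 1 wkpp and at 423, 294 and 278 in SNEB 1 wkpp. At 16 wkpp it stood at 88.0, 139 and 338 in MNEB and at 482, 716 and 134 in SNEB. The 3 SNEB 1 wkpp libraries were above all libraries of the other 2 groups sampled before 16 wkpp, and at 16 wkpp the groups overlapped in both directions, since SNEB library 3 lay below MNEB libraries 2 and 3. The spread within a group was widest at 16 wkpp, where the highest library was 3.84 times the lowest in MNEB and 5.36 times the lowest in SNEB. Over the 9 libraries outside MNEB, PDPN and CCL21 had a Pearson r of -0.682, the lowest of any pair with CCL21, in a set of libraries where the time of sampling also differs.

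CCL21 ranged from 1.96 to 890 normalized exonic counts over the 15 libraries, with the low end on few reads. Before calving it stood at 559, 890 and 505 normalized exonic counts, from 541 to 1457 reads. In SNEB it stood at 124, 657 and 45.1 at 1 wkpp and at 150.1, 130 and 541 at 16 wkpp, so that the 3 libraries of SNEB 1 wkpp differed by a factor of 14.6. In MNEB it stood at 5.21, 13.5 and 44.1 at 1 wkpp and at 1.96, 2.57 and 21.7 at 16 wkpp. All MNEB libraries were below all others, but at 1 wkpp MNEB library 3 and SNEB library 3 were almost level, at 44.1 and 45.1. The means were 652 ± 208 before calving, 275 ± 333 and 274 ± 232 in SNEB at 1 and 16 wkpp, and 20.9 ± 20.5 and 8.73 ± 11.2 in MNEB (SD, n = 3). The 2 SNEB means were nearly the same.

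The MNEB values of CCL21 rested on few reads. The 6 libraries held 5, 5 and 12 reads at 1 wkpp and 2, 1 and 8 reads at 16 wkpp. The exact Poisson 95% interval, which covers counting error only, was 6.20 to 21.0 for the library with 12 reads and 0.0253 to 5.57 for the library with 1 read. SNEB 1 wkpp library 3 held 69 reads, with an interval of 53.7 to 87.3 in a deeper library. CCL21 was also almost free of intronic reads, with 2 in all 15 libraries against 5815 exonic reads, and both of them fell in MNEB 1 wkpp library 3, one of the 5 libraries named above. Without the 5 libraries CCL21 was at 2.57, 5.21 and 21.7 in the remaining MNEB libraries and between 45.1 and 890 in the other 7.

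VEGFC and FIGF, the ligands, were lower in MNEB to unlike extents. FIGF stood at 378, 272 and 325 before calving, at 346, 322 and 271 in SNEB 1 wkpp, and at 295, 190.4 and 419 in SNEB 16 wkpp. In MNEB it stood at 77.2, 27.0 and 44.1 at 1 wkpp and at 40.1, 79.7 and 62.3 at 16 wkpp, from 10 to 74 reads. No MNEB library reached any of the others. VEGFC stood at 225, 233 and 169 before calving, at 63.6, 119 and 132 in MNEB 1 wkpp and at 184, 227 and 153 in SNEB 1 wkpp. At 16 wkpp VEGFC stood at 54.8, 59.1 and 81.2 in MNEB and at 86.2, 93.7 and 345 in SNEB, where library 3, which also had the highest CCL21 of its group, set the mean of 175 ± 147 (SD, n = 3). VEGFC separated MNEB from SNEB within each time point, but MNEB at 1 wkpp overlapped SNEB at 16 wkpp. Without the 5 libraries named above VEGFC ranged from 59.1 to 81.2 in 3 MNEB libraries and from 93.7 to 345 in the other 7.

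STAB2 was the exception in the list, since it was barely measured in exons. It had 69 exonic reads in all 15 libraries, and 0 in 5 of them. The exonic reads were highest in before calving library 3 (20 reads) and MNEB 1 wkpp libraries 2 and 3 (14 and 15 reads). Its normalized intronic count was 75.6 to 865 in the 5 libraries named above and 0 to 13.3 in the other 10. In those 5 libraries the STAB2 intronic count was 1.00 to 1.35 times the median of the 243 genes with almost no exonic reads, a set that does not contain STAB2. Averaged over the 15 libraries, STAB2 lay at the 59.3rd percentile of the 243 genes by intronic count. STAB2 thus moved with these libraries, whose part in its level was not tested, and without them its normalized exonic count was at most 2.09 in any library.

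**Figure D2:**
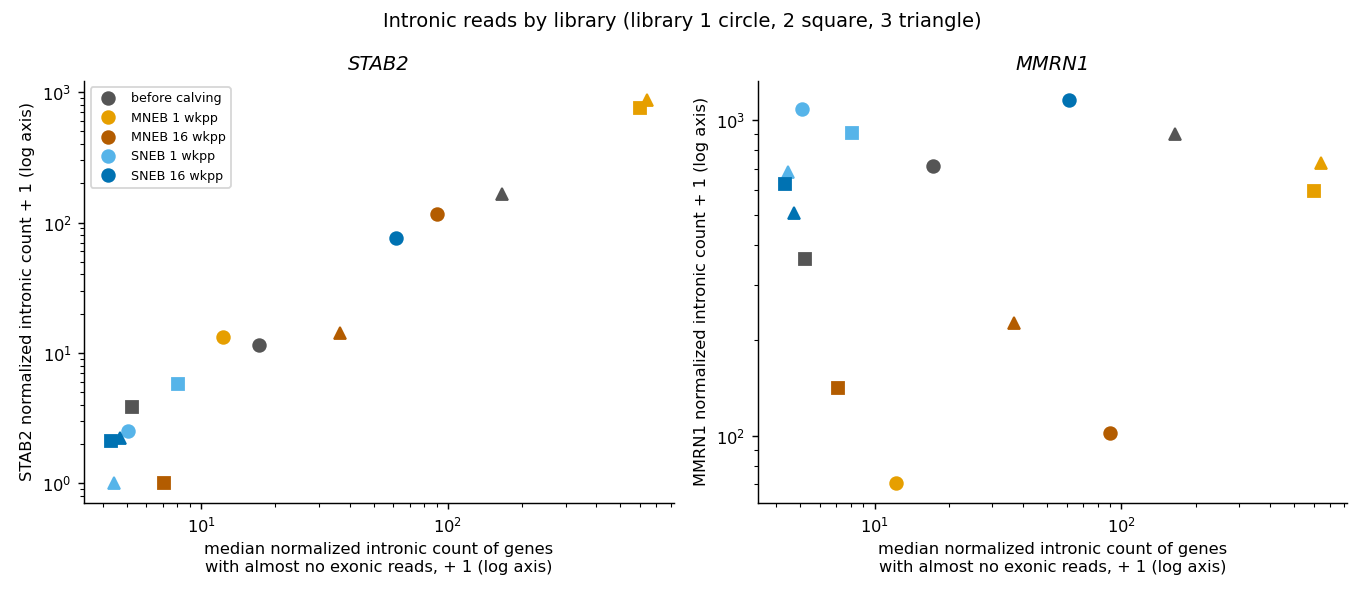
Normalized intronic count plus 1 of STAB2 (left) and MMRN1 (right) against the median normalized intronic count plus 1 of 243 genes with almost no exonic reads, both on log axes, with 1 point for each of the 15 libraries. STAB2 lies close to the median in the 5 libraries where that median is highest, and MMRN1 in MNEB 1 wkpp lies at 69.5 in library 1 and at 592 and 729 in libraries 2 and 3.

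The intronic reads of the other genes were also high in some of these libraries. MMRN1 had a normalized intronic count of 69.5 in MNEB 1 wkpp library 1 but of 592 and 729 in libraries 2 and 3, and the SNEB 1 wkpp libraries were at 1080.3, 905 and 683. FIGF had 62.3 in MNEB 1 wkpp library 1 and 270.4 and 403 in libraries 2 and 3, which is above the 202 to 264 of SNEB 1 wkpp. The reads of the entire gene include introns, and for MMRN1 and FIGF the differences from MNEB 1 wkpp were smaller in them than in exons. LYVE1 had a normalized intronic count of 27.6 in MNEB 1 wkpp library 1, of 67.6 and 80.6 in libraries 2 and 3, and of 268 to 480.2 in SNEB 1 wkpp. PROX1 had 73.6 in MNEB 1 wkpp library 1, 254 and 352 in libraries 2 and 3, and 147 to 650 in SNEB 1 wkpp. At 16 wkpp the PROX1 intronic count was 36.7 to 103 in MNEB and 267 to 423 in SNEB.

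The comparisons were fitted by limma-voom on 3 libraries against 3, with exonic reads and with reads of the entire gene, and a gene was a DEG where the adjusted p was below 0.01 in both with the same sign. Between SNEB and MNEB at 16 wkpp, 1.05% of 10155 genes tested were DEGs higher in SNEB, and 2 of the 6 listed genes tested were among them, LYVE1 and MMRN1, against 3.65% in either direction. Between SNEB and MNEB at 1 wkpp 0 of 10365 genes were DEGs, which is 0.0%, and limma-trend also gave 0, while 3388 genes in exons and 2292 in entire genes had an unadjusted p below 0.05. Between the group before calving and MNEB 1 wkpp, 1.03% of 10410 genes were DEGs higher before calving, and 1 of 7 listed genes, LYVE1, was among them, against 1.82% in either direction. That call was lost when any 1 of the 6 libraries was left out, with a log2 difference of 2.85 to 3.19. At 16 wkpp the call of LYVE1 was lost without MNEB library 1 (2.43) or 3 (3.10), and that of MMRN1 without MNEB library 1 (3.35), 2 (3.92) or 3 (3.90) or SNEB library 2 (3.84). Without MNEB library 1 at 1 wkpp, LYVE1 (3.43), MMRN1 (3.37) and STAB2 (-6.50) were DEGs between SNEB and MNEB, and 448 genes in all. The MNEB libraries left in that fit, 2 and 3, are both among the 5 libraries named above. By exonic reads alone, 3 of 7 listed genes passed higher before calving than in MNEB 1 wkpp, with 7.18% of 10518 genes, 2 of 7 passed higher in SNEB at 1 wkpp, with 0.754% of 10476, and 2 of 6 passed at 16 wkpp, with 3.38% of 10265. In 1 fit of all 15 libraries 2 listed genes were DEGs in each of the comparisons of MNEB 1 wkpp with SNEB 1 wkpp, with 3.08% of 10343 genes, and with the group before calving, with 10.4%, and 2 were between SNEB and MNEB at 16 wkpp, with 4.67%. Since the genes were chosen with these results known, nothing is read from these counts.

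On the log2 scale, the exonic difference of SNEB over MNEB was 3.59 ± 0.39 at 1 wkpp and 2.93 ± 0.33 at 16 wkpp for LYVE1, and 3.80 ± 0.40 and 3.78 ± 0.34 for MMRN1 (± SE). For reads of the entire gene the difference of MMRN1 was 2.92 ± 0.60 at 1 wkpp and 3.20 ± 0.35 at 16 wkpp. CCL21 differed by 3.84 ± 2.05 at 1 wkpp and 5.46 ± 1.61 at 16 wkpp. FIGF differed by 2.51 ± 0.41 and 2.43 ± 0.47, PDPN by 1.18 ± 0.30 and 1.40 ± 0.72, and VEGFC by 1.10 ± 0.35 and 1.16 ± 0.70. Some of these values moved when 1 library was left out. At 16 wkpp PDPN ranged from 0.74, without MNEB library 1, to 2.08, without SNEB library 3, and was 0.90 without SNEB library 2, while VEGFC ranged from 0.54, without SNEB library 3, to 1.54. VEGFC at 1 wkpp was 0.60 without MNEB library 1, and CCL21 ranged from 2.71 to 4.75 at 1 wkpp and from 4.55 to 6.19 at 16 wkpp. PROX1 differed by 0.27 ± 0.45 at 1 wkpp and 0.95 ± 0.30 at 16 wkpp in exons. Its difference was larger in reads of the entire gene, at 0.74 ± 0.59 and 1.53 ± 0.32. In introns it was 1.0 ± 0.80 and 1.94 ± 0.42, and PROX1 was not a DEG at either time. The fitted exonic difference was above 0 for these 7 genes, FIGF among them, at both times, and for PROX1 at 1 wkpp it was smaller than its error. STAB2 had a difference of -4.24 ± 2.04 at 1 wkpp, lower in SNEB and not a DEG, and was below the filter in exons at 16 wkpp. LYVE1 and MMRN1 were not DEGs at 16 wkpp in the fit without the 5 libraries, which keeps 2 libraries in each of these groups, where they differed by 2.20 and 3.10 and 35 genes were DEGs.

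**Figure D3:**
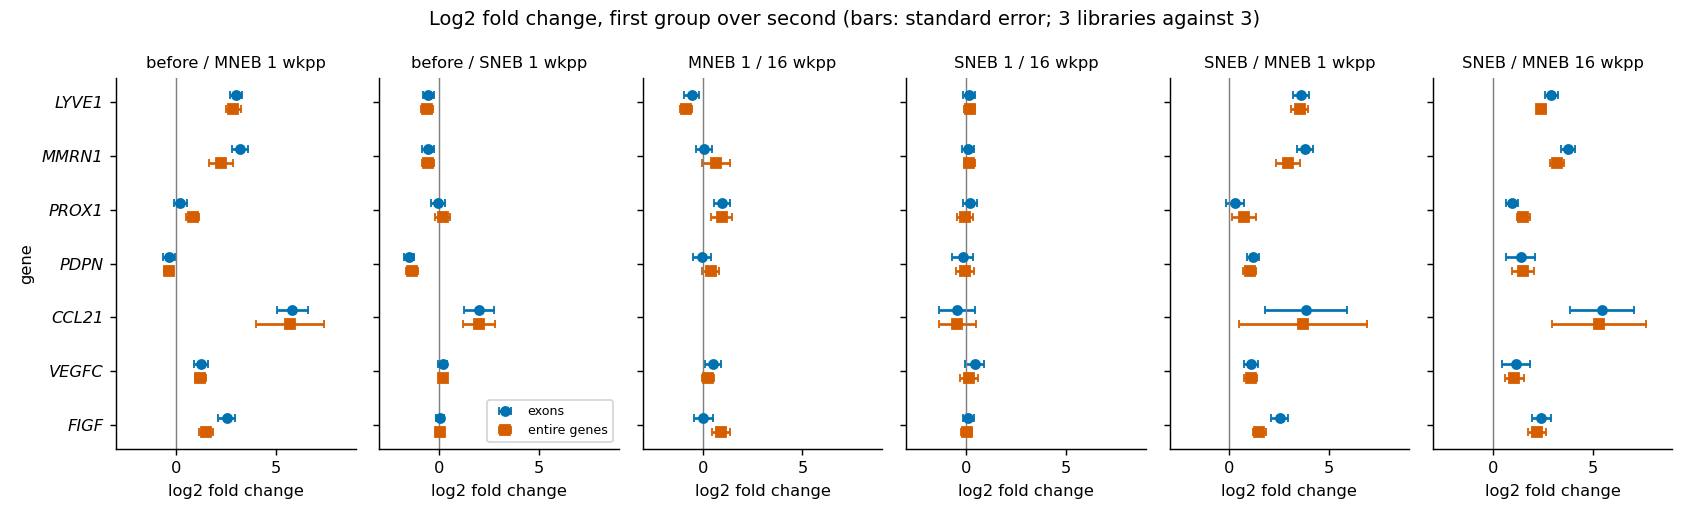
Log2 fold change of the first group over the second with its standard error, for 7 genes in the 6 comparisons, from exonic reads (circles) and from reads of the entire gene (squares). In the 3 comparisons with MNEB against another group LYVE1, MMRN1, CCL21 and FIGF lie right of 0, and in the comparisons within SNEB or within MNEB the exonic values lie between -0.55 and 0.96. CCL21 has no point for MNEB 1 against 16 wkpp because its mean count was below the filter.

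Before calving against 1 wkpp, both comparisons used the same 3 libraries before calving, so their values are given side by side. Over MNEB 1 wkpp, the level before calving was higher by 5.83 ± 0.78 for CCL21, 3.02 ± 0.31 for LYVE1, 3.22 ± 0.39 for MMRN1, 2.55 ± 0.42 for FIGF and 1.26 ± 0.34 for VEGFC on the log2 scale (± SE, exonic reads). PDPN and PROX1 differed by -0.36 ± 0.29 and 0.21 ± 0.33 in exons. PROX1 differed by 0.83 ± 0.35 in reads of the entire gene and by 1.3 ± 0.51 in introns. Over SNEB 1 wkpp, the differences were 1.99 ± 0.74 for CCL21, -0.55 ± 0.29 for LYVE1, -0.57 ± 0.31 for MMRN1, 0.05 ± 0.20 for FIGF and 0.17 ± 0.22 for VEGFC. Leaving out 1 library, CCL21 ranged from 4.74 to 6.32 over MNEB, and over SNEB from 1.16, without SNEB library 3, to 3.04, without SNEB library 2, and VEGFC over MNEB was 0.77 without MNEB library 1. PDPN differed by -1.53 ± 0.25, with a lower level before calving than in SNEB 1 wkpp, and PROX1 by -0.06 ± 0.36. None of the 6 listed genes tested was a DEG in the latter comparison, in which 0.0378% of 10593 genes were. SNEB 1 wkpp library 2, at 657, lay within the range of CCL21 before calving, and the other 2 libraries lay below it.

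Within MNEB and within SNEB, from 1 to 16 wkpp, none of the listed genes was a DEG, and nor was any other gene (0.0% of 9797 genes in MNEB and 0.0% of 10491 in SNEB, by limma-voom and by limma-trend). In exons, 1335 genes in MNEB and 765 in SNEB had an unadjusted p below 0.05. In exons, 1 minus 16 wkpp, PROX1 differed by 0.96 ± 0.41 in MNEB and CCL21 by -0.45 ± 0.90 in SNEB. The exonic reads of CCL21 and STAB2 in MNEB were below the filter and were not tested. LYVE1 differed by -0.55 ± 0.37 in MNEB and 0.13 ± 0.30 in SNEB. The change over time was also compared between the diets with an interaction term on the 12 libraries after calving. The term is the change from 1 to 16 wkpp in SNEB minus that in MNEB, the reverse time direction of the values above. It was -0.66 ± 0.55 for LYVE1, -0.03 ± 0.57 for MMRN1, 0.67 ± 0.62 for PROX1 and 1.70 ± 3.17 for CCL21, and 0 of 10244 genes were called, with 509 genes at an unadjusted p below 0.05 in exons.

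The genes around the lymphatic markers did not all follow them. Of a list of 44 genes of lymphatic growth and vessel function, which includes FIGF, 37 had values and 36 were tested between SNEB and MNEB at 16 wkpp. Of these, 2 were DEGs higher in SNEB, against 1.05% of all genes tested, and 3 were DEGs lower in SNEB, against 2.6%. The median log2 difference of the list, FIGF included, was 0.22, against 0.03 over all 10265 genes tested in exons. The 2 that were higher were EFEMP1, an extracellular matrix glycoprotein (3.13 ± 0.46), and SEMA3D, a secreted guidance molecule (1.41 ± 0.21). Those lower in SNEB were NR2F2, a nuclear receptor that acts upstream of PROX1 in venous endothelium (-1.42 ± 0.18), ANGPT1, a ligand of the TIE2 receptor (-1.43 ± 0.23), and the kinase AKT1 (-0.94 ± 0.17). NR2F2 stood at 1510, 1162 and 1392 in MNEB 16 wkpp and at 534, 569 and 416 in SNEB 16 wkpp, so it was high where LYVE1 and MMRN1 were low. Before calving against MNEB 1 wkpp, 2 of 36 genes were DEGs and higher before calving, against 1.03% of all genes, EFEMP1 (3.15 ± 0.23) and GJA1, a gap junction protein (2.13 ± 0.23), with a median of -0.42 against 0.04 over all genes. In the other 4 comparisons none of the genes of this list was a DEG, against at most 0.0378% of all genes.

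A list of 16 blood endothelium genes was also compared, 4 of which are in the list above, and all 16 were tested. Between SNEB and MNEB at 16 wkpp none was a DEG higher in SNEB, against 1.05% of all genes. Lower in SNEB there were 3 DEGs, against 2.6% of all genes: NOS3, the endothelial nitric oxide synthase (-1.73 ± 0.17), the receptor ROBO4 (-1.71 ± 0.24) and the secreted factor EGFL7 (-1.32 ± 0.20). The median was -0.41, against 0.03 over all genes. Before calving against MNEB 1 wkpp, ROBO4 was a DEG and lower before calving (-2.74 ± 0.25), with 0.788% of all genes, and none was one higher before calving, against 1.03%. The summed level of the list was 48042 to 94261 normalized counts in MNEB 1 wkpp, 40415 to 51158 in SNEB 1 wkpp, 39980 to 51066 in MNEB 16 wkpp, 30754 to 35699 in SNEB 16 wkpp and 25917 to 33995 before calving. Per 1000 reads on these 16 genes in the same library, a measure that needs no size factor and was added after the data were seen, LYVE1 had 1.14 to 5.89 reads in MNEB and 18.1 to 57.4 elsewhere. MMRN1 had 0.885 to 3.52 and 20.8 to 66.0, and FIGF 0.562 to 1.88 and 5.30 to 14.6. CCL21 had 0.0383 to 0.630 in MNEB and 0.881 to 26.2 elsewhere, without overlap. VEGFC had 0.675 to 2.47 in MNEB and 2.80 to 9.67 elsewhere, without overlap, and PDPN 1.72 to 8.47 and 3.05 to 21.6, with overlap. PROX1 had 1.39 to 5.04 and 2.67 to 9.36, and overlapped on this scale as well.

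Of 12 genes listed as acting with CCL21, 10 had values and 6 to 8 were tested in each comparison, and none of those tested was a DEG. ACKR4, a scavenging receptor that removes CCL19 and CCL21, stood at 416, 206 and 376 before calving, at 28.2, 89.2 and 91.9 in MNEB 1 wkpp and at 206, 129 and 127 in SNEB 1 wkpp. At 16 wkpp ACKR4 stood at 70.4, 79.7 and 125 in MNEB and at 205, 170.2 and 281 in SNEB, so that all MNEB libraries were below all others. CCL19, the other ligand of CCR7, ranged from 2.70 to 24.4 in MNEB and from 9.14 to 82.9 elsewhere. CCR7 ranged from 0 to 33.1 in MNEB and from 5.88 to 26.9 elsewhere, on at most 48 reads. It was not tested between SNEB and MNEB at 16 wkpp or within MNEB, and was not a DEG in the other 4 comparisons. CXCL12, a chemokine of stromal cells, and its receptor CXCR4 ranged from 738 to 1555 and from 16.2 to 69.8 in MNEB and from 1104 to 2540 and 28.7 to 121 elsewhere, with overlap. LTBR, a receptor upstream of lymphoid chemokines, overlapped throughout, at 565 to 878 in MNEB and 597 to 966 elsewhere, and the BMP antagonist GREM1, at 37.8 to 129 and 142 to 478, did not.

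Markers of other cells that can carry the listed genes also differed. The macrophage list, with values for 9 of 10 genes, summed to 2683 to 9970 normalized counts in MNEB and to 9352 to 28620 elsewhere. Between SNEB and MNEB at 16 wkpp 3 of the 6 macrophage genes tested in both read types were DEGs higher in SNEB, against 1.05% of all genes, CD163 (3.30 ± 0.23), CSF1R (1.97 ± 0.20) and MSR1 (2.95 ± 0.44). At 1 wkpp none was a DEG, and nor was any other gene. The part of macrophages in the LYVE1 difference was not tested. The fibroblast list, which itself contains PDPN, had its 6 lowest sums in the MNEB libraries, where PDPN made up at most 338 of a sum of at least 6646, and DCN, a matrix proteoglycan, was a DEG higher in SNEB at 16 wkpp (2.20 ± 0.34) and before calving than in MNEB 1 wkpp (2.84 ± 0.30). In the latter comparison PDGFRA, a receptor of fibroblasts and their progenitors, was also a DEG higher before calving (2.41 ± 0.21), while PDPN stood at 137 ± 28.8 in MNEB 1 wkpp and 112 ± 18.4 before calving (SD, n = 3). The part of fibroblasts in the PDPN values was not tested.

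Lymph node tissue, another source of CCL21, was checked with 18 genes, of which 15 had values. Their sum was 564 to 1864 normalized counts in MNEB and 3134 to 7348 elsewhere, and outside MNEB most of it came from 1 gene, CR2, a complement receptor, at 130.1 to 667 in MNEB and 2298 to 5379 elsewhere. CR2 is carried by mature B cells and by follicular dendritic cells. CD79A, of the B cell receptor, stood at 5.21 to 30.8 in MNEB and 3.23 to 15.1 elsewhere, and CXCL13, a chemokine of follicles, at 0 to 7.35 in MNEB and 0.541 to 11.6 elsewhere. The T cell gene CD3E ranged from 15.7 to 33.1 in MNEB and from 20.2 to 97.4 elsewhere. Between SNEB and MNEB at 16 wkpp, CR2 (3.95 ± 0.42) and PTPRC, the pan-leukocyte marker CD45 (1.57 ± 0.21), were DEGs of the 9 genes tested, against 1.05% of all genes. GLYCAM1 and CHST4, genes of the high endothelial venules of lymph nodes, had at most 2 and 4 reads in any library, the highest in before calving library 3, and 0 in both 16 wkpp groups. MADCAM1, another gene of these venules, had at most 3 reads in any library and 1 in each 16 wkpp group. The part of lymph node tissue in the CCL21 level was not tested.

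Single genes of other lists also differed. Of 5 mast cell genes tested, CPA3 (4.25 ± 0.45) and KIT (2.55 ± 0.22) were DEGs higher in SNEB at 16 wkpp, against 1.05% of all genes, and KIT was one before calving against MNEB 1 wkpp (3.17 ± 0.28). Of 7 adipocyte genes tested, LPL (4.72 ± 0.34), LEP (3.85 ± 0.37) and CIDEC (2.36 ± 0.21) were DEGs higher before calving than in MNEB 1 wkpp, against 1.03% of all genes. In the same comparison LIPE (-0.93 ± 0.26) and PNPLA2 (-0.52 ± 0.19), both lipases, had values below 0 and were not DEGs. Between SNEB and MNEB no adipocyte gene was a DEG at 16 wkpp, against 3.65% of all genes, or at 1 wkpp, where 0 of 10365 genes were. By exonic reads alone, 3 of 8 passed higher in SNEB at 1 wkpp, with 0.754% of all genes, and 1 of 8 at 16 wkpp, with 3.38%. At 16 wkpp LEP had a value of -2.24 ± 0.71 between SNEB and MNEB. TNNT3 of skeletal muscle was a DEG lower in SNEB at 16 wkpp (-3.28 ± 0.29). In each comparison 5 smooth muscle, 0 to 4 skin and 1 to 2 erythrocyte genes were tested. None of them was a DEG, against 0.0% to 3.65% of all genes by comparison. The smooth muscle median of SNEB over MNEB was -1.63 at 16 wkpp, against 0.03 over all genes, and -0.03 at 1 wkpp, against 0.07. The skin list summed to 121 to 286 normalized counts before calving, to 0 to 268 in MNEB and to at most 8.31 in SNEB, and the erythrocyte list to at most 334 in any library.

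The genes most like CCL21 and PROX1 across the 15 libraries did not overlap between them. Among 8016 genes with a mean of at least 100 normalized exonic counts, the log2 level of CCL21 had its highest Pearson r with MFAP2 (0.960), TGFBI (0.947), KIT (0.944), RAC2 (0.936) and CTHRC1 (0.935). Of these, MFAP2, TGFBI and CTHRC1 encode matrix or secreted proteins, KIT a receptor of mast cells and progenitors, and RAC2 a GTPase of blood cells. KIT, for example, ranged from 222 to 408 in MNEB and from 923 to 3212 elsewhere, while RAC2 overlapped, at 70.3 to 110.3 in MNEB and 103 to 505 elsewhere. PROX1 had its highest r with ECSCR (0.872), PRKCZ (0.872), BSCL2 (0.840), PDE4B (0.839) and ARRB2 (0.839), of which ECSCR is an endothelial membrane protein and is in the lymphatic list above. ECSCR ranged from 373 to 1007 in MNEB and from 601 to 848 elsewhere, with its highest library in MNEB 1 wkpp. The MNEB libraries share low depth, so these correlations are only descriptions.

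Among the listed genes themselves, CCL21 had a Pearson r of 0.864 with VEGFC, 0.841 with MMRN1, 0.826 with LYVE1, 0.821 with FIGF, 0.709 with PROX1 and 0.137 with PDPN over the 15 libraries. Outside MNEB, over 9 libraries, r was -0.144 with LYVE1 and -0.407 with MMRN1, while it was 0.691 with PROX1 and 0.629 with VEGFC. The order of the libraries by CCL21 within SNEB was not that by LYVE1. SNEB 1 wkpp library 1 had the highest LYVE1 and MMRN1 of all 15 libraries and a CCL21 of 124, and before calving library 2 had the highest CCL21 and the lowest LYVE1 and MMRN1 outside MNEB.

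**Figure D4:**
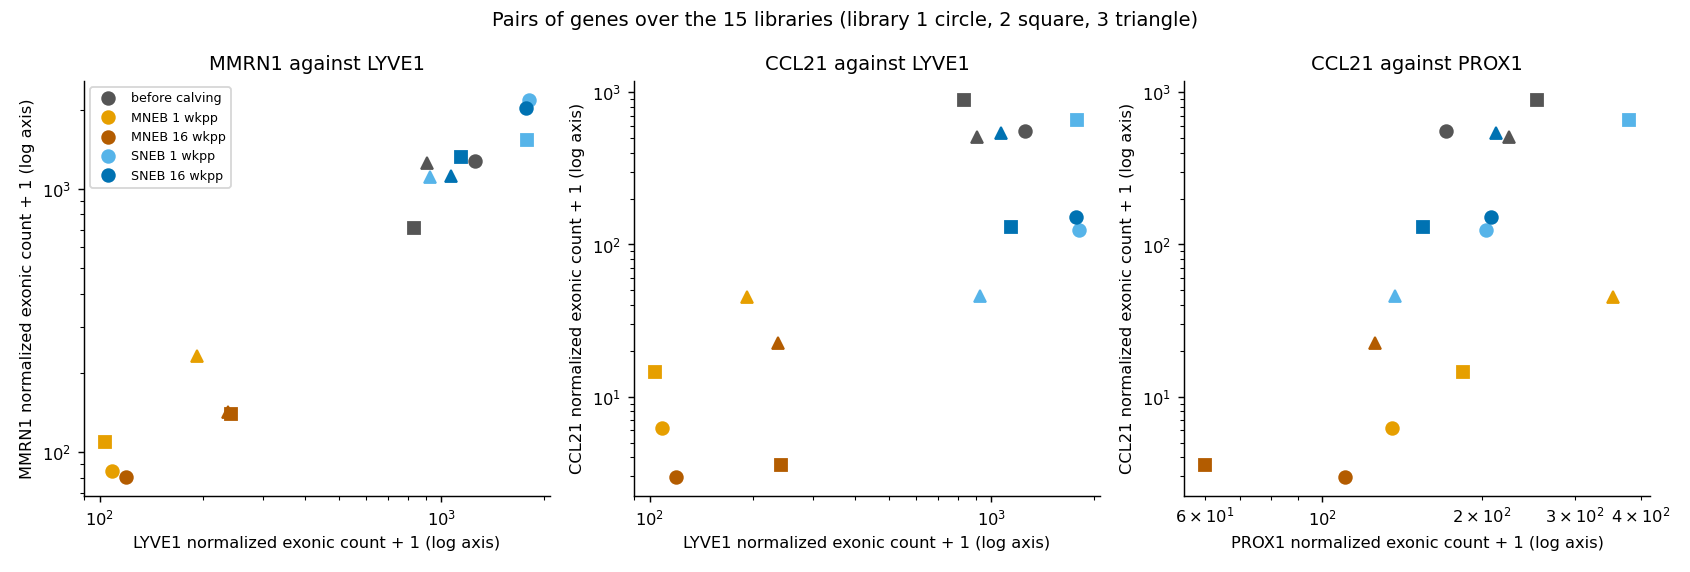
Normalized exonic counts plus 1 of pairs of genes on log axes, with 1 point for each of the 15 libraries: MMRN1 against LYVE1, CCL21 against LYVE1, and CCL21 against PROX1. MMRN1 and LYVE1 form a line, CCL21 spreads over more than a factor of 10 at high LYVE1, and at a similar PROX1 the MNEB libraries lie lower in CCL21.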

How the data were processed

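RNA of subcutaneous adipose tissue was sequenced by the authors from ribosome-depleted stranded libraries, trimmed with Cutadapt 1.3 (submitters' notes also name bcl2fastq 2.15.0), aligned with TopHat2 to bosTau8 and counted with htseq-count on exons and on entire genes. Each of the 6 deposited tables holds, for 6 libraries, the authors' mean normalized count after division by DESeq2 size factors. Their other columns are the authors' DESeq2 fold changes, errors and p-values for the comparison, which were not used. Columns of other samples numbered 0.

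The means were deposited with 15 digits. They were decomposed exactly into whole reads of each library: the weights of the 6 libraries of a table were found from genes with few reads, libraries were linked across tables by equal counts, and the 15 counts of a gene were solved from the 6 means as integers (lattice reduction, sympy 1.14.0). This recovered 13891 of 13896 genes in exons and 13892 in entire genes, with a largest relative residual of 6.4e-15. Recovered exonic depth was 2027524 to 14632181 reads per library. The group of a library follows from the tables that contain it, but not which sample it is, so libraries were numbered by size factor.

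Comparisons used limma-voom (limma 3.58.1, R 4.3.3) with median-of-ratios size factors, genes with a mean of at least 10 normalized counts, 3 libraries against 3, and Benjamini-Hochberg adjustment over all genes tested, separately for exons and entire genes. A DEG had an adjusted p below 0.01 in both with the same sign. Intronic reads are entire gene minus exonic reads. Values by library use size factors over all 15 libraries. Simulated exonic counts with a fixed dispersion were tested in exons alone, which is not the DEG rule. For SNEB against MNEB at 1 wkpp (10465 genes), 100.0% of 100 genes changed 8-fold passed in them. Of 100 genes changed 2-fold 5.0% passed, and there were 2 false calls. In the data of this comparison LYVE1 and MMRN1, 12.0-fold and 13.9-fold higher in SNEB in exons, were not DEGs. Tables and figures were made in Python 3.11.15 (pandas 2.3.3, scipy 1.17.1, numpy 2.4.6, matplotlib 3.10.9).

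The listed genes and the gene lists were chosen with earlier results of these data known. Named genes are every listed gene found, the DEGs of the other lists, the CCL21 partners with a mean of at least 10 normalized counts, and for CCL21 and PROX1 the 5 most correlated genes with a mean of at least 100; the lymphocyte and lymph node markers named by level were chosen after their values were seen. Some genes of these lists are not reported here. The 243 genes with almost no exonic reads had a mean normalized exonic count below 5 and a mean intronic count above 50. Alternatives were exonic or entire gene reads alone, an adjusted p below 0.05, library totals, no filter or a mean of at least 50, all 15 libraries in 1 fit, limma-trend, leaving out each library, and intronic reads; the fit without 5 libraries and the ratio to blood endothelium were added after the data were seen. No sequences or gene lengths of the files' build were used here.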

Additional observations from a re-analysis of the deposited data

How the results depend on the processing

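No paired analysis was possible because the recovered libraries carry no replicate numbers. Of the values of single genes under an alternative, 627 kept direction and call, 21 gained a call, 19 lost one and 50 changed sign, and of the counts 128 stayed within 1.5 times and 58 did not; the cause was not tested except where fewer libraries or a looser rule set it. The log2 differences of LYVE1, MMRN1, CCL21, FIGF and VEGFC kept their direction, lower in MNEB, in the 3 comparisons of MNEB with another group under every alternative that gave a value. In introns those of FIGF were 0.72 ± 0.61 for SNEB over MNEB at 1 wkpp and 0.78 ± 0.61 before calving over MNEB 1 wkpp. The mean intronic count of FIGF was however not lower in MNEB 1 wkpp, at 245 against 226 in SNEB 1 wkpp and 238 before calving. The fit without the 5 libraries holds 10 libraries of all 5 groups and keeps 1 library of MNEB 1 wkpp, which is assumed to vary like the other groups. For the group before calving against MNEB 1 wkpp (189 DEGs, 1 listed gene), there were 319 DEGs with library totals, 65 with no filter (0 listed), 1080.0 with all 15 libraries (2), 1 without the 5 libraries (0; 2 libraries against 1), 1737 with exonic reads alone (3) and 1057 at an adjusted p below 0.05 (2), with 0 listed genes by introns. Against SNEB 1 wkpp (4 DEGs) there were 0 with library totals, 23 with all 15 libraries, 9 with limma-trend, 53 with exonic reads alone and 67 at 0.05. For SNEB against MNEB at 1 wkpp (0) there were 319 with all 15 libraries (2 listed), 252 with exonic reads alone (2) and 93 at 0.05 (1). At 16 wkpp (371, 2 listed) there were 35 without the 5 libraries (0), 1066 with exonic reads alone and 1346 at 0.05, with 0 listed by introns. Leaving out 1 library gave 1 to 227 DEGs and 0 to 0 listed genes before calving against MNEB, 0 to 85 and 0 to 1 against SNEB (PDPN, -1.62, without SNEB library 2), 0 to 448 and 0 to 3 for SNEB against MNEB at 1 wkpp, and 34 to 111 and 0 to 2 at 16 wkpp.

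Some log2 differences changed sign. Before calving they were PDPN against MNEB, 0.91 as the ratio to blood endothelium, and against SNEB FIGF (-0.05, library totals), PROX1 (0.16 entire gene, 0.32 introns, 0.63 ratio), LYVE1 (0.11, ratio) and MMRN1 (0.09, ratio). Between MNEB 1 and 16 wkpp they were PDPN (0.0 library totals, 0.07 all 15 libraries, 0.41 entire gene, 0.79 introns), FIGF (-0.0 no filter, -0.36 limma-trend, -0.97 ratio), MMRN1 (-0.75 without the 5 libraries, -0.48 ratio) and VEGFC (-0.14 without the 5), where the values without the 5 set 1 library against 2. Between SNEB 1 and 16 wkpp they were PDPN (0.07 without the 5), PROX1 (-0.03 entire gene, -0.17 introns, -0.29 ratio), FIGF (-0.08 introns, -0.39 ratio), LYVE1 (-0.35), MMRN1 (-0.40) and VEGFC (-0.11), each by ratio. Leaving out 1 library, PROX1 ranged from -0.18 to 0.49 before calving against MNEB, from -0.38 to 0.33 against SNEB and from -0.14 to 0.60 for SNEB against MNEB at 1 wkpp, and FIGF from -0.09 to 0.19 before calving against SNEB. Between MNEB 1 and 16 wkpp PDPN ranged from -0.62 to 0.43, FIGF from -0.62 to 0.33 and MMRN1 from -0.29 to 0.49. Between SNEB 1 and 16 wkpp LYVE1 ranged from -0.04 to 0.46, MMRN1 from -0.17 to 0.33, PROX1 from -0.19 to 0.53, CCL21 from -1.49 to 0.38, PDPN from -0.85 to 0.30 and FIGF from -0.18 to 0.37. At the depth of MNEB, CCL21 rested on 1 to 12 reads a library.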
